A study of Homo sapiens with 6 samples.

Results

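DNA damage repair genes encode the proteins that sense, signal and mend lesions in the genome. The 57 genes described here were taken by name from a table of 26255 genes, and all 57 were listed in it. They cover 7 roles: break sensing and checkpoint signaling (10 genes), homologous recombination (11 genes), the Fanconi anaemia pathway (10 genes), end joining (5 genes), mismatch repair (4 genes), nucleotide excision repair (8 genes) and base excision, single-strand break and direct repair (9 genes). Of the 57 genes, 56 reached 0.1 FPKM in 3 or more of the 6 libraries and were tested, and MGMT did not pass this filter.

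The libraries were made from NCI-H1299, an established human lung cancer cell line that lacks p53 protein, grown in RPMI-1640 with fetal bovine serum. There were 3 shControl libraries from cells carrying a pSilencer2.1-U6 control shRNA plasmid and 3 shEphexin1 libraries from cells carrying the same plasmid with an shRNA against Ephexin1, a guanine nucleotide exchange factor encoded by NGEF. Both groups are stable transfectants kept under drug selection in the study's methods, which speak of knockdown clones. The names of the shEphexin1 libraries share a stem, so they may come from 1 clone, and while the methods say in general that experiments were done in triplicate and repeated, they do not tie the libraries to separate cultures. The p values therefore measure the spread between these libraries, which may be technical. The comparison asks how the mRNA of these genes differed between cells with and without the Ephexin1 shRNA.

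Double-strand breaks are recognized by the MRE11-RAD50-NBN complex and signaled by the kinases ATM and ATR to CHEK2 and CHEK1. They are mended either by end joining, which ligates the ends directly, or by homologous recombination, which copies the sequence from an intact sister chromatid. Crosslinks, mispaired bases, bulky lesions and damaged single bases are handled by the Fanconi anaemia, mismatch, nucleotide excision and base excision pathways. Many of these genes are also expressed more in proliferating cells, and the products of some act at replication forks.

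The values are FPKM, which are fragment numbers scaled by transcript length and by library size, so levels of different genes can be compared per length, while the read depth behind them is unknown. In bulk RNA, less mRNA per cell and fewer cells that express a gene cannot be told apart. NGEF itself had a log2 fold change of -0.53 (limma adjusted p = 0.103), with all 3 shEphexin1 libraries below all 3 shControl libraries. Of the 4 epithelial markers examined, KRT18 was between 36.3 and 109.4 FPKM and KRT8 between 2.65 and 8.44 FPKM, while KRT19 and EPCAM stayed under 0.25 FPKM in all 6 libraries. KRT18 and KRT8 fell, with log2 fold changes of -0.94 and -1.07 (limma adjusted p = 0.0439 and 0.0304). VIM, a mesenchymal intermediate filament gene, was between 1979 and 2670 FPKM. The lung lineage gene NKX2-1 and the blood genes PTPRC and CD3E were listed at 0 FPKM in all 6 libraries, and SFTPB, SFTPC, COL1A1, PDGFRB, PECAM1 and VWF stayed under 0.5 FPKM. Replicate 2 of both groups stood apart from replicates 1 and 3. Across genes, the correlation of a library with transcript GC content was -0.69 and -0.76 (Spearman) in the replicate 2 libraries and between 0.34 and 0.66 in the other 4, after centring each gene on its group. Values for replicates 1 and 3 alone and for replicate 2 are therefore given for the 12 repair genes with the smallest p values.

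The promoter windows of 4 genes are shown here because 3 of them, RAD51C, PMS2 and CHEK2, had the smallest p values among the 57 genes and the fourth, MGMT, was listed without transcripts. Each window is the RefSeq sequence (GRCh38.p14) from 250 bases before to 10 bases after the transcription start of the first entry listed, read 5′ to 3′ on the strand of the gene. Capitals mark matches, on either strand, to 5 short motifs: the cAMP response element TGACGTCA, the CCAAT box, the GC box GGGCGG, the E2F motifs TTTCCCGC, TTTGGCGC, TTTCGCGC and TTTGCCGC, and the cell cycle homology element TTTGAA.
RAD51C, chr17:58692323-58692582, plus strand: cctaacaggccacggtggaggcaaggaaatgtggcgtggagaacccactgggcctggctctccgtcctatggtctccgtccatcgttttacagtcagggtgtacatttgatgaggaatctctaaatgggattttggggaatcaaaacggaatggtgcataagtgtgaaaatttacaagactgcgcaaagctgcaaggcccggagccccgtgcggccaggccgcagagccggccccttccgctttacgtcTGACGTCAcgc
PMS2, chr7:6009097-6009356, minus strand: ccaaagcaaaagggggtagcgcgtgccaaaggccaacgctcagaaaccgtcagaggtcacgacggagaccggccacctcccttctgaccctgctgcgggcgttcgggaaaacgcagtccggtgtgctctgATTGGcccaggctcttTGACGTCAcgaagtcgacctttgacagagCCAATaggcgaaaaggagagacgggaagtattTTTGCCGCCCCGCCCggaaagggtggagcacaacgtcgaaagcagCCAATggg
CHEK2, chr22:28741811-28742070, minus strand: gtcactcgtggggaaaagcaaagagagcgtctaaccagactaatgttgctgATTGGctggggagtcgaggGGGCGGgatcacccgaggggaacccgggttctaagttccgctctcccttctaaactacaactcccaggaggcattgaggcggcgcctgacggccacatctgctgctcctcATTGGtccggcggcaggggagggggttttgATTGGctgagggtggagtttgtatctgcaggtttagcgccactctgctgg
MGMT, chr10:129466991-129467250, plus strand: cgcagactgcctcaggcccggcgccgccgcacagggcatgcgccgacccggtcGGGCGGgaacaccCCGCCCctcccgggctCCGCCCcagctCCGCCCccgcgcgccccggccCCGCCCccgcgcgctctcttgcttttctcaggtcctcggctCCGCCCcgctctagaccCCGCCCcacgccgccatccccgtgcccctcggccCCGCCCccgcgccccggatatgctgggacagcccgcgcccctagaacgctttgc

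The RAD51C window held 1 cAMP response element, which begins at position -1, and no match to the other 4 motifs. The PMS2 window held 1 cAMP response element at -104, 3 CCAAT boxes, and an E2F motif at -43 that overlaps the first of 2 GC boxes. CHEK2 had 3 CCAAT boxes and a GC box at -180 but no cAMP response element. The MGMT window was 79.2% G and C and held 8 GC boxes and 37 CpG pairs, and 5.19% of all windows held as many CpG pairs. These motifs were chosen after the sequences and the values had been seen, and a match is a string of letters, not a bound site. The cAMP response element occurred in 1.80% of 35116 windows of this length, the CCAAT box in 32.7%, the GC box in 43.1%, the E2F motifs in 2.90% and the cell cycle homology element in 13.8%. These shares count single windows, while the counts of genes below take any listed start of a gene. The units are therefore not alike, and a gene with several starts has more windows in which to hold a motif. Of the 57 genes, 52 were matched to a window, and 5 (9.62%) held the cAMP response element at a listed start: RAD51C, PMS2, XRCC2, LIG4 and PARP2. The CCAAT box was held by 27 of the 52 (51.9%) and the GC box by 39 (75.0%). The E2F motifs were held by 7 (13.5%) and the cell cycle homology element by 8 (15.4%). A share above that of all windows was thus not particular to the cAMP response element. The log2 fold changes of XRCC2, LIG4 and PARP2 were 0.36, 0.23 and 0.14, on the opposite side from RAD51C and PMS2.

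RAD51C and PMS2 were the only repair genes of the 57 that fell at an adjusted p at or below 0.05, and no gene rose at this threshold. A log2 fold change here is that of log2(FPKM + 0.1), shEphexin1 against shControl, and adjusted p values come from limma over all 16020 genes tested. None of the 56 genes was called at the study's thresholds (adjusted p at or below 0.025 and a difference of 2-fold or more), where 1.89% of all genes tested were, 0.893% higher and 0.999% lower. At an adjusted p at or below 0.05 the count was 2 of 56, against 7.01% of all genes (4.32% lower and 2.69% higher). At an unadjusted p under 0.05 there were 6 genes, against 23.3% of all genes, with RAD51C, PMS2, CHEK2, FANCC and BRCA1 lower and ERCC5 higher.

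The repair genes as a group sat close to no difference. Their median log2 fold change was -0.036, beside -0.0093 for all genes tested, and 32 of 56 (57.1%) were on the lower side, beside 51.1% of all genes. The log2 fold change was within 0.5 of zero for 54 genes and within 0.25 for 43. For 55 of the 56, RAD51C being the exception, the 95% interval of the log2 fold change lay within 1 on either side of zero, so a 2-fold difference was outside it. For 10 of the 56 genes (17.9%) the shControl and shEphexin1 values did not overlap, as was the case for 28.3% of all genes tested (12.8% higher and 15.4% lower). For 8 of these the shEphexin1 libraries were lower (RAD51C, PMS2, CHEK2, FANCC, BRCA1, WRN, PRKDC and XRCC5) and for 2 they were higher (ERCC5 and TP53BP1). A two-sided exact permutation test gives p = 0.1 for each of these 10, the smallest p that 3 libraries against 3 allow.

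**Figure D1:**
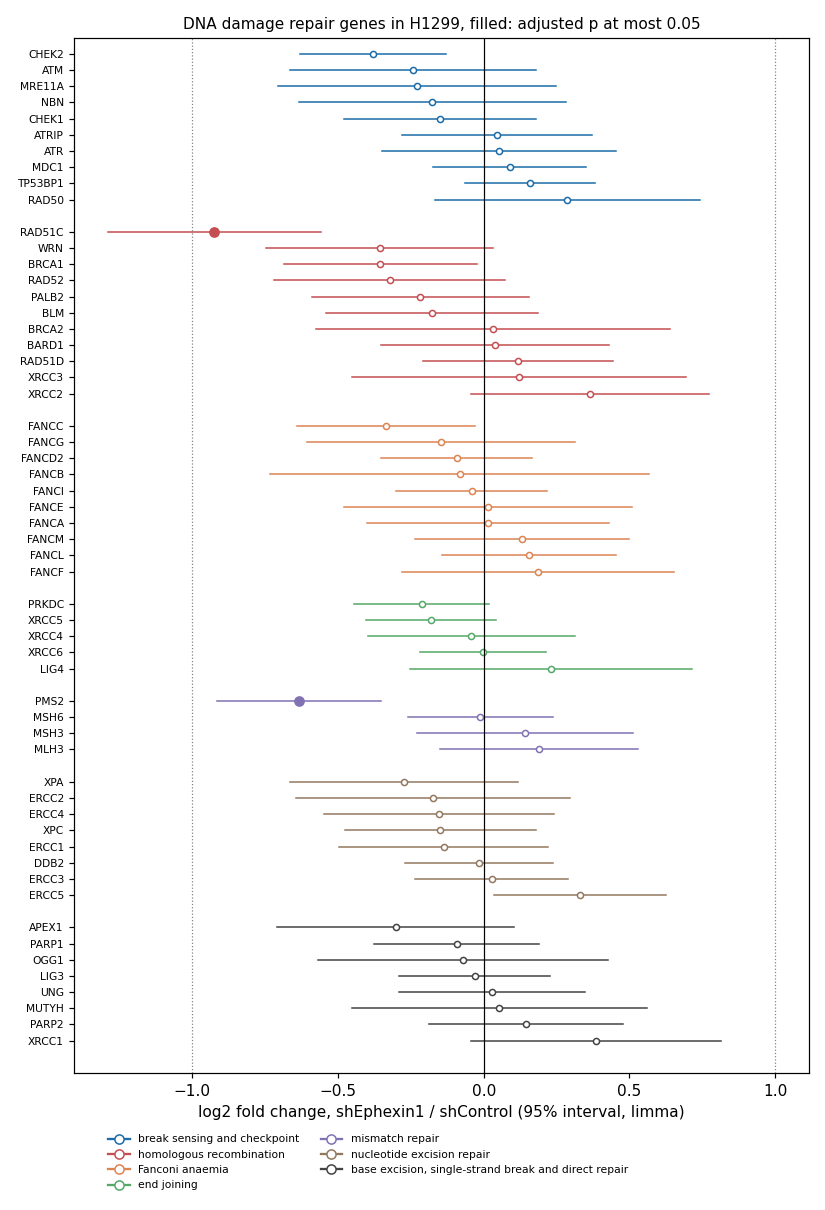
Log2 fold change (shEphexin1 / shControl, horizontal axis) of the 56 repair genes tested, ordered by role and drawn with 95% intervals from limma. Filled points mark RAD51C (-0.92) and PMS2 (-0.63), the 2 genes with an adjusted p at or below 0.05, and dotted lines mark a 2-fold difference.

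Homologous recombination held the largest difference. RAD51C, which acts in the assembly of recombination filaments and in resolving recombination intermediates, lies at GRCh37 chr17:56769934-56812972. With the control shRNA it stood at 23.7, 30.3 and 29.8 FPKM, and with the Ephexin1 shRNA at 12.3, 16.4 and 15.4 FPKM. The highest shEphexin1 library was below the lowest shControl library. The mean fell from 27.9 ± 3.65 to 14.7 ± 2.15 FPKM (SD, n = 3 per group), or 52.6% of the control level, a log2 fold change of -0.92 (SE, standard error, 0.156, limma adjusted p = 0.0190). With replicates 1 and 3 alone it was -0.94 (limma adjusted p = 0.0117), and in replicate 2 alone the log2 ratio was -0.88. When any 1 library other than shEphexin1 replicate 2 was left out, the adjusted p lay between 0.0503 and 0.0876, with a log2 fold change between -1.04 and -0.80.

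None of the other 10 recombination genes reached an adjusted p of 0.05. BRCA1, the ubiquitin ligase that directs breaks towards recombination, was at 11.7, 12.8 and 10.8 FPKM with the control shRNA and 7.99, 10.5 and 9.16 FPKM with the Ephexin1 shRNA. Its groups did not overlap, but the gap between the nearest libraries was smaller than the spread within shEphexin1, and the log2 fold change was -0.35 (SE 0.142, limma adjusted p = 0.190), with -0.39 in replicates 1 and 3 alone and -0.28 in replicate 2. WRN, a RecQ helicase and exonuclease, was at 5.01, 6.06 and 4.76 FPKM with the control shRNA and 4.07, 4.71 and 3.53 FPKM with the Ephexin1 shRNA, with a log2 fold change of -0.36 (limma adjusted p = 0.252) that was the same, -0.36, in replicates 1 and 3 alone and in replicate 2. RAD52, an annealing protein, was at 12.1, 8.75 and 11.2 FPKM with the control shRNA and 8.53, 7.29 and 9.62 FPKM with the Ephexin1 shRNA. These groups overlapped, with a log2 fold change of -0.32 (limma adjusted p = 0.307), and of -0.35 in replicates 1 and 3 alone and -0.26 in replicate 2. XRCC2, which acts in a complex with RAD51C and RAD51D, lay on the higher side, at 9.65, 11.8 and 9.96 FPKM with the control shRNA and 12.2, 17.1 and 11.7 FPKM with the Ephexin1 shRNA, with a log2 fold change of 0.36 (SE 0.175, limma adjusted p = 0.266). This value was 0.28 in replicates 1 and 3 alone, 0.53 in replicate 2 and 0.19 without shEphexin1 replicate 2. BRCA2, a mediator of strand exchange, and BARD1, the partner of BRCA1, had log2 fold changes of 0.033 and 0.038. PALB2, which bridges BRCA1 and BRCA2, and the helicase BLM had values of -0.22 and -0.18, and RAD51D and XRCC3, which act beside RAD51C, had 0.12 and 0.12. The median of the 11 genes was -0.18.

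In mismatch repair, PMS2 differed from the other 3 genes in its value. PMS2, an endonuclease subunit that nicks the strand holding the mismatch, lies at GRCh37 chr7:6010556-6048761. It was at 8.16, 8.20 and 8.70 FPKM with the control shRNA and 5.62, 4.95 and 5.48 FPKM with the Ephexin1 shRNA. The groups were separated by a gap larger than the range within either group, and the mean fell from 8.35 ± 0.301 to 5.35 ± 0.351 FPKM (SD, n = 3 per group), 64.0% of the control level. The log2 fold change was -0.63 (SE 0.121, limma adjusted p = 0.0274), with -0.59 in replicates 1 and 3 alone (limma adjusted p = 0.0189) and a log2 ratio of -0.72 in replicate 2. Without any 1 library other than shEphexin1 replicate 2, the adjusted p lay between 0.0589 and 0.134. The mismatch recognition genes MSH3 and MSH6 had log2 fold changes of 0.14 and -0.012, and MLH3, which also acts in meiotic crossing over, had 0.19.

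PMS2 has pseudogene copies, between which reads could have been split, so its level is uncertain. The copies were found by their names, and their sequences were not compared with PMS2. The copies PMS2CL, PMS2P1, PMS2P2, PMS2P3, PMS2P4, PMS2P7 and PMS2P9 also passed the filter. PMS2P1 was the most abundant of them, between 26.7 and 33.9 FPKM over the 6 libraries, which is more than PMS2 itself. PMS2P9 rose from 8.51, 8.68 and 8.11 FPKM to 13.2, 11.9 and 11.3 FPKM, with a log2 fold change of 0.52 (limma adjusted p = 0.0418). PMS2CL was at 3.95, 3.31 and 3.23 FPKM with the control shRNA and 2.97, 2.78 and 2.57 FPKM with the Ephexin1 shRNA, a log2 fold change of -0.32 (limma adjusted p = 0.258). The copies thus lay on both sides of zero, with log2 fold changes between -0.59 and 0.52.

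**Figure D2:**
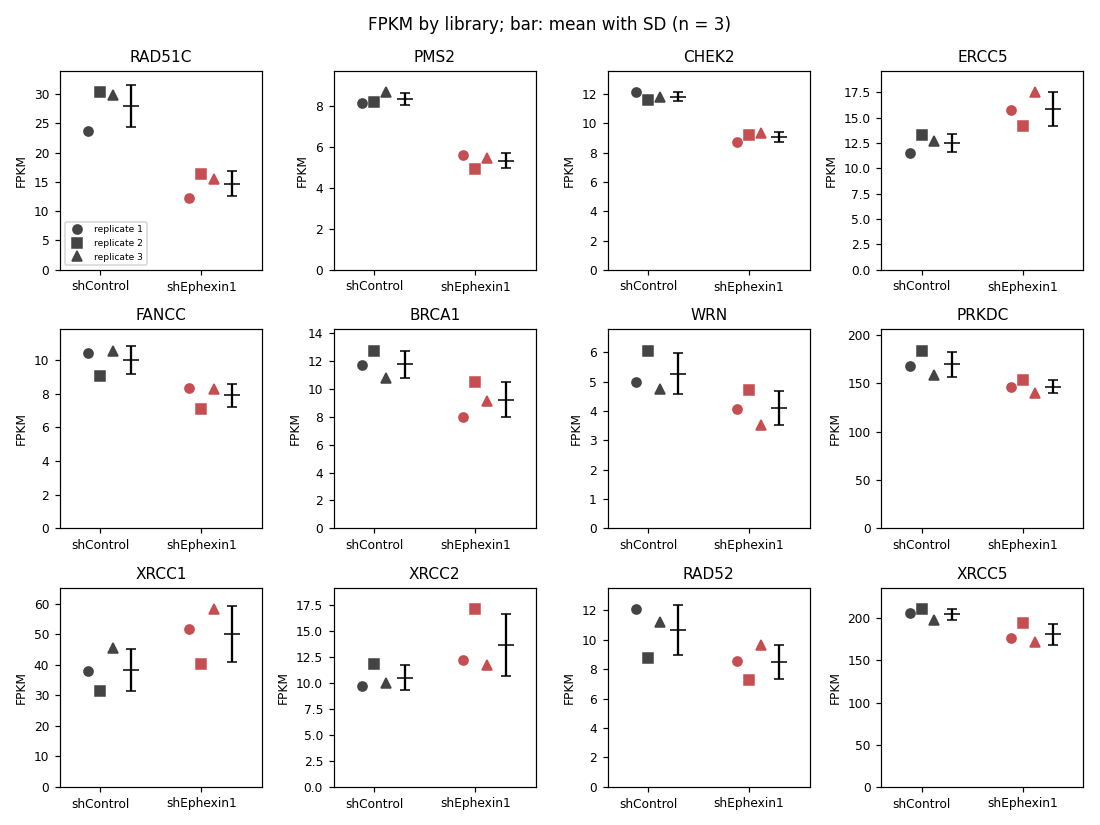
FPKM in each library (vertical axis) of the 12 repair genes with the smallest p values, by group, with circles, squares and triangles for replicates 1, 2 and 3 and a bar for the mean with SD (n = 3). RAD51C, PMS2 and CHEK2 show a gap between the groups, while XRCC1, XRCC2 and RAD52 overlap.

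The genes of break sensing and checkpoint signaling had a median log2 fold change of -0.053, and none of the 10 had an adjusted p at or below 0.05. CHEK2, the kinase downstream of ATM, came closest. It was at 12.1, 11.6 and 11.8 FPKM with the control shRNA and 8.72, 9.20 and 9.31 FPKM with the Ephexin1 shRNA. Both groups were tight and well separated, with means of 11.8 ± 0.278 and 9.08 ± 0.313 FPKM (SD, n = 3 per group). The log2 fold change was -0.38 (SE 0.107, limma adjusted p = 0.0808), and it was -0.40 with replicates 1 and 3 alone (limma adjusted p = 0.0409) and -0.33 in replicate 2. CHEK1, the kinase downstream of ATR, had a log2 fold change of -0.15, ATM one of -0.24 and ATR one of 0.053. ATRIP, the partner of ATR, and the break-site scaffold MDC1 had values of 0.045 and 0.089. Within the complex that recognizes breaks, RAD50 lay at 0.29 while MRE11A and NBN lay at -0.23 and -0.18, and all 3 had adjusted p values above 0.4. TP53BP1, which protects ends from resection, was at 26.2, 27.6 and 26.1 FPKM with the control shRNA and 28.9, 29.7 and 30.6 FPKM with the Ephexin1 shRNA, a small but non-overlapping difference (log2 fold change 0.16, limma adjusted p = 0.378).

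The 10 Fanconi anaemia genes had a median log2 fold change of -0.014, and 9 of them lay within 0.25 of zero. The exception was FANCC, a subunit of the core complex that ubiquitinates FANCD2 and FANCI. FANCC was at 10.4, 9.04 and 10.6 FPKM with the control shRNA and 8.31, 7.10 and 8.29 FPKM with the Ephexin1 shRNA, a log2 fold change of -0.34 (SE 0.130, limma adjusted p = 0.177), with -0.33 in replicates 1 and 3 alone and -0.35 in replicate 2. The groups did not overlap, and the lowest library of each was replicate 2. The clamp proteins FANCD2 and FANCI had log2 fold changes of -0.093 and -0.041. Of the other core complex genes, FANCA, FANCB, FANCE and FANCG lay between -0.15 and 0.016, and FANCL, the ubiquitin ligase subunit, lay at 0.16. FANCM, the translocase that brings the core complex to DNA, had a value of 0.13. FANCF, also of the core complex, had the lowest level of the 56 genes tested, at 0.913, 0.814 and 1.01 FPKM with the control shRNA and 1.05, 1.21 and 0.907 FPKM with the Ephexin1 shRNA. These values overlapped, and the log2 fold change was 0.19 (SE 0.200, limma adjusted p = 0.639).

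End joining held 3 of the most abundant mRNAs of the 57 genes. XRCC5, which encodes Ku80, was at 205.8, 210.8 and 197.5 FPKM with the control shRNA and 176.6, 194.5 and 171.2 FPKM with the Ephexin1 shRNA. The shEphexin1 libraries were lower without overlap, with a log2 fold change of -0.18 (SE 0.0948, limma adjusted p = 0.307), or -0.21 in replicates 1 and 3 alone and -0.12 in replicate 2. XRCC6, which encodes its partner Ku70, was at 161.9, 150.8 and 168.4 FPKM with the control shRNA and 161.8, 154.2 and 163.7 FPKM with the Ephexin1 shRNA. These values overlapped throughout, and the 95% interval of the log2 fold change was -0.22 to 0.21. PRKDC, the kinase that Ku recruits to ends, was at 167.6, 183.9 and 158.3 FPKM with the control shRNA and 146.1, 153.1 and 140.0 FPKM with the Ephexin1 shRNA, with a log2 fold change of -0.21 (SE 0.0993, limma adjusted p = 0.252), or -0.19 in replicates 1 and 3 alone and -0.26 in replicate 2. The ligase gene LIG4 and its cofactor XRCC4 had log2 fold changes of 0.23 and -0.042.

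Of the 8 nucleotide excision repair genes, 6 lay on the lower side, with a median log2 fold change of -0.14, and none had an adjusted p at or below 0.05. ERCC5, the nuclease that cuts 3′ of the lesion, lay on the higher side. It was at 11.6, 13.3 and 12.8 FPKM with the control shRNA and 15.8, 14.2 and 17.5 FPKM with the Ephexin1 shRNA. The groups did not overlap, but the replicate 2 libraries were close together, and the log2 fold change was 0.33 (SE 0.127, limma adjusted p = 0.174). It was 0.45 with replicates 1 and 3 alone (limma adjusted p = 0.0337) and 0.087 in replicate 2. ERCC1, whose product cuts 5′ of the lesion together with that of ERCC4, had the highest mean level of the 57 genes. ERCC1 was at 223.4, 185.8 and 255.0 FPKM with the control shRNA and 204.0, 171.9 and 226.6 FPKM with the Ephexin1 shRNA, and the groups overlapped, with a log2 fold change of -0.14 (limma adjusted p = 0.655). ERCC4 was far lower, at 4.26, 4.71 and 4.32 FPKM with the control shRNA and 3.74, 4.89 and 3.42 FPKM with the Ephexin1 shRNA, with overlapping groups and a log2 fold change of -0.15 (limma adjusted p = 0.652). The lesion recognition genes XPC and DDB2 had values of -0.15 and -0.016, and XPA, which verifies the lesion, had -0.27. The helicase genes ERCC2 and ERCC3 had values of -0.17 and 0.027.

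Among the genes of base excision, single-strand break and direct repair, none of the 8 tested had an adjusted p at or below 0.05 or groups that did not overlap. XRCC1, the scaffold of single-strand break repair, had the highest log2 fold change of the 56 genes. It was at 37.9, 31.5 and 45.5 FPKM with the control shRNA and 51.6, 40.3 and 58.2 FPKM with the Ephexin1 shRNA. The 2 highest libraries were shEphexin1 and the lowest was shControl, but the groups overlapped, with a log2 fold change of 0.39 (SE 0.183, limma adjusted p = 0.260), or 0.40 in replicates 1 and 3 alone and 0.36 in replicate 2. Its ligase partner LIG3 had a value of -0.031. PARP1 and PARP2, which mark strand breaks with poly(ADP-ribose), had log2 fold changes of -0.093 and 0.14. The glycosylases OGG1, MUTYH and UNG had -0.071, 0.054 and 0.029, and the endonuclease APEX1 had -0.30 (limma adjusted p = 0.358). MGMT, which removes alkyl groups from guanine directly, was listed at 0 FPKM in all 6 libraries. A listing at 0 does not show that the mRNA is absent, since the histone gene H3F3A was also listed at 0 FPKM in all 6.

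RAD51C and PMS2 lay in stretches of chromosome where most expressed genes were lower in shEphexin1. This was examined after the values had been seen, for genes with a mean of at least 1 FPKM within 5 Mb of the midpoint of a repair gene, the gene itself left out. Around RAD51C, 52 of 55 neighbours were lower, with a median log2 fold change of -0.55, and 23 of them fell at an adjusted p at or below 0.05 while 0 rose. Around PMS2, 53 of 55 neighbours were lower, with a median of -0.51, and 13 fell while 0 rose. These medians were -0.58 and -0.49 with replicates 1 and 3 alone, and -0.51 and -0.54 in replicate 2. In each of the 9 ways to set 1 shEphexin1 library against 1 shControl library the neighbours' median was below zero, from -0.65 to -0.49 around RAD51C and from -0.91 to -0.19 around PMS2. With the neighbours' median subtracted, the log2 fold change of RAD51C was -0.38 and that of PMS2 was -0.13. With the median of the whole chromosome arm subtracted instead, they were -0.72 and -0.38. DNA copy number was not measured, and the part of the chromosomal position in either result was not tested.

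**Figure D3:**
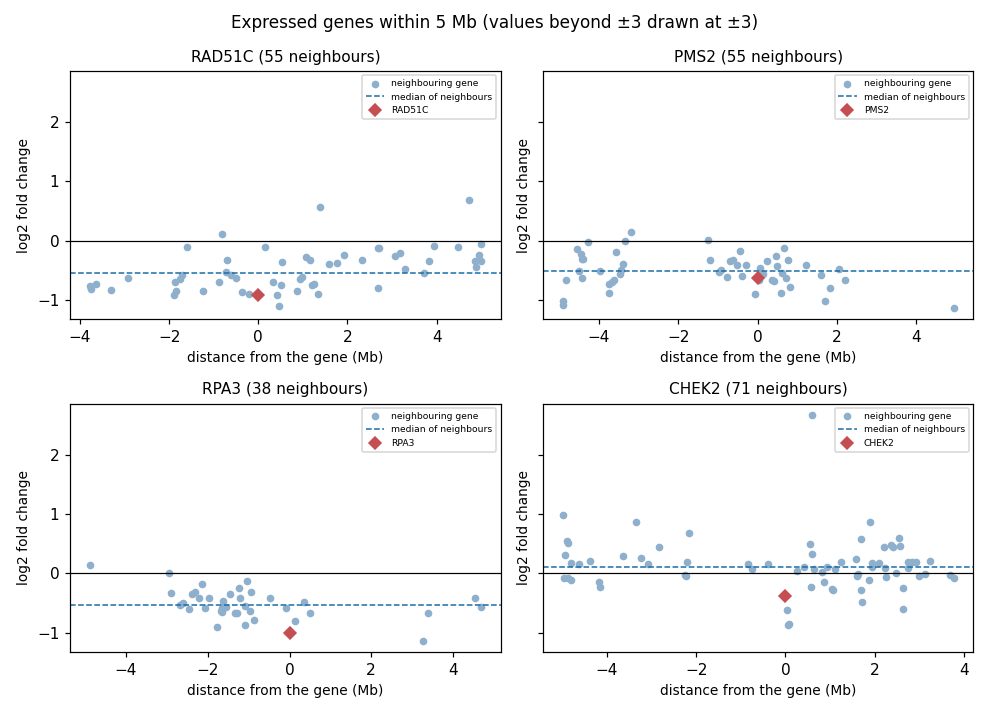
Log2 fold change (vertical axis) of expressed genes against their distance in Mb from RAD51C, PMS2, RPA3 and CHEK2 (red diamonds), with a dashed line at the neighbours' median. Nearly all neighbours of RAD51C (52 of 55), PMS2 (53 of 55) and RPA3 (36 of 38) lie below zero, and those of CHEK2 lie on both sides.

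CHEK2 did not share this pattern over the same distance. The median of its 71 neighbours was 0.10, and 26 of them were lower. The 3 expressed genes nearest to CHEK2, all within 0.1 Mb, were lower, however: HSCB at -0.62 (limma adjusted p = 0.0312), CCDC117 at -0.87 (limma adjusted p = 0.0106) and XBP1 at -0.85 (limma adjusted p = 0.00672). These 3 were singled out after their values were seen. ERCC5, FANCC and BRCA1 had neighbour medians of 0.11, -0.23 and -0.11. XRCC2 lay on 7q, where the median of 408 expressed genes was 0.30, and RAD52 on 12p, where the median of 169 was -0.43. With the median of the arm subtracted, the log2 fold change of XRCC2 was 0.066 and that of RAD52 was 0.11.

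Of 55 repair genes with a mean of at least 1 FPKM, 4 had a neighbours' median of -0.4 or less, a limit set after the values had been seen: RAD51C, PMS2, RAD52 and PRKDC, the last with 6 neighbours. Of these 4 genes, 2 fell at an adjusted p at or below 0.05, and of the remaining 51 genes 0 did. Among all 12205 expressed genes, 4.06% had such a neighbourhood. Within it 31.7% fell at this threshold, and outside it 3.46% did. Genes of 1 stretch are neighbours of each other, so the same fold changes set both the neighbourhoods and the falls. These shares are therefore a description, and a part of the chromosomal position was not tested.

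**Figure D4:**
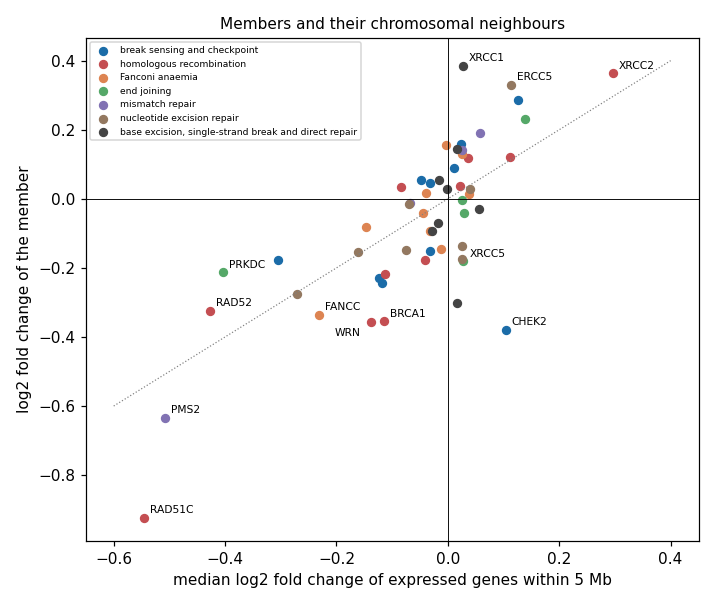
Log2 fold change of each repair gene (vertical axis) against the median log2 fold change of expressed genes within 5 Mb (horizontal axis), colored by role, with a dotted line where both are equal. RAD51C and PMS2 lie at the lower left, at neighbour medians of -0.55 and -0.51, and CHEK2 lies below the line at a neighbour median of 0.10.

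Some repair genes start close to a gene on the opposite strand, and 25 of them had such a head-to-head partner starting within 1 kb that passed the filter. The start was taken as the outermost annotated end of each gene. Neither the start in use nor a shared promoter was examined. In 15 of the 25 pairs both genes had the same sign, and no such share was counted for pairs of other genes. AIMP2, the partner of PMS2, was at 23.4, 21.3 and 25.6 FPKM with the control shRNA and 17.6, 12.9 and 16.7 FPKM with the Ephexin1 shRNA, a log2 fold change of -0.58 (limma adjusted p = 0.0640). NBR1 starts 236 bases from the outermost annotated start of BRCA1, and ERC1 456 bases from that of RAD52. Whether BRCA1 and RAD52 were transcribed from these starts was not examined, so neither pair is shown to share a promoter. NBR1 fell at -0.46 (limma adjusted p = 0.0394) and ERC1 at -0.52 (limma adjusted p = 0.0390). HSCB is the partner of CHEK2. MCM4, a replicative helicase gene whose start lies 7 bases from that of PRKDC, had a log2 fold change of -0.29 (limma adjusted p = 0.0966). PURG, beside WRN, stayed under 0.7 FPKM in all 6 libraries, with -0.68 (limma adjusted p = 0.180). DESI1, the partner of XRCC6, and GAS2, the partner of FANCF, had values of 0.033 and 0.58, the latter at under 0.4 FPKM in all 6. The kit marks strand but the strand setting of the counting is not stated, so reads of overlapping partners may have been mixed.

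Replicate 2 differed from replicates 1 and 3 by more than the groups differed for 44 of the 56 genes. Averaged over both groups, replicate 2 was higher for 31 genes and lower for 25. The repair genes span transcript GC contents from 33.1% to 63.8%, and over the 56 genes, which share the same libraries, the replicate 2 deviation fell with GC content (Spearman's rho = -0.92). BRCA2, at 10.3, 14.7 and 8.54 FPKM with the control shRNA and 9.80, 15.3 and 9.17 FPKM with the Ephexin1 shRNA, shows it at low GC content, and XRCC3, at 38.5, 25.9 and 40.3 FPKM and 40.7, 27.1 and 46.9 FPKM, shows it at high GC content. In both genes the replicate 2 library stood out in each group in the same way. The sign in replicate 2 matched that in replicates 1 and 3 for 44 of the 56 genes.

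**Figure D5:**
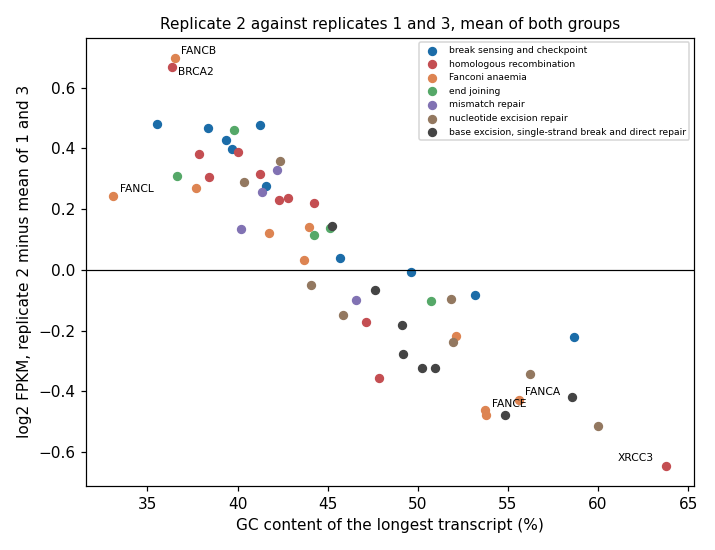
Difference in log2 FPKM between replicate 2 and the mean of replicates 1 and 3, averaged over both groups (vertical axis), against the GC content of the longest transcript in percent (horizontal axis) for the 56 repair genes. Genes of low GC content such as FANCB and BRCA2 lie high and XRCC3 lies lowest (Spearman's rho = -0.92).

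When this difference was given a term in the model, more repair genes passed, and so did more of all genes. With the term, 15 of 56 genes (26.8%) had an adjusted p at or below 0.05, 11 lower and 4 higher, where 29.2% of all genes did. The 11 lower genes were RAD51C, PMS2, CHEK2, FANCC, BRCA1, PRKDC, RAD52, XRCC5, WRN, ATM and XPA, and the 4 higher genes were XRCC1, XRCC2, RAD50 and ERCC5. With replicates 1 and 3 alone the count was 4 (RAD51C, PMS2, CHEK2 and ERCC5), 7.14% of the 56, where 17.3% of all genes passed. The fold changes under the term are those of the main model, so all 15 genes apart from RAD51C and PMS2 differed by less than 0.4 on the log2 scale.

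Beyond the 57 genes, 92 further genes of the same pathways were found in the table and all passed the filter. Of these, 5 fell at an adjusted p at or below 0.05 and 0 rose, where 4.32% of all genes fell and 2.69% rose. At an unadjusted p under 0.05 there were 18 of the 92, 13 lower and 5 higher, against 23.3% of all genes (12.8% lower and 10.5% higher). Their median log2 fold change was -0.083. Of the 5 that fell, 3 belong to homologous recombination in the list used, 1 to nucleotide excision repair (RAD23B, a partner of XPC, at -0.52) and 1 to single-strand break repair (APTX, which clears aborted ligations, at -0.50). The lists of break sensing, Fanconi anaemia, end joining and mismatch repair held 0 genes past this threshold among 18, 12, 7 and 3 tested.

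RPA3, the smallest subunit of the single-stranded DNA binding complex RPA, was the only one of the 92 called at the study's thresholds. Among all genes tested, 1.89% were called in either direction and 0.999% were called lower. RPA3 was at 26.2, 26.8 and 25.9 FPKM with the control shRNA and 12.4, 12.5 and 14.0 FPKM with the Ephexin1 shRNA, a log2 fold change of -1.01 (SE 0.105, limma adjusted p = 0.00368). EME1, a subunit of a structure-selective nuclease, was at 14.0, 13.6 and 14.6 FPKM with the control shRNA and 8.47, 8.27 and 9.49 FPKM with the Ephexin1 shRNA, a log2 fold change of -0.68 (limma adjusted p = 0.0183). RBBP8, which encodes the resection factor CtIP, was at 20.4, 25.2 and 19.3 FPKM with the control shRNA and 12.3, 15.3 and 12.4 FPKM with the Ephexin1 shRNA, a log2 fold change of -0.69 (limma adjusted p = 0.0378). In all 3 genes every shEphexin1 library was below every shControl library. Their neighbours within 5 Mb were also mostly lower: 36 of 38 around RPA3 (median -0.54), 67 of 73 around EME1 (-0.56) and 17 of 20 around RBBP8 (-0.44). Of the other 2 genes that fell, RAD23B also had mostly lower neighbours, 22 of 29 (median -0.33). Around APTX 33 of 63 neighbours were lower (median -0.0099). Both medians lay above the limit of -0.4 that was set after the values had been seen. RPA3 lies 1.69 Mb from PMS2 on 7p, and 34 genes are neighbours of both (89.5% of those of RPA3 and 61.8% of those of PMS2), so these are not separate observations. EME1 lies 8.34 Mb from RAD51C on 17q, and 3 genes are neighbours of both.

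Many repair genes vary with proliferation, so 20 cell cycle genes were read in the same way. Of these, 3 fell (CDK1 at -0.79, FOXM1 at -0.51 and AURKA at -0.50) and 1 rose (CCNE1 at 0.72) at an adjusted p at or below 0.05, where 4.32% of all genes fell and 2.69% rose. The median log2 fold change of the 20 genes was -0.11. Whether this difference has a part in the values of the repair genes was not tested.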

How the data were processed

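The RNA-seq experiment measured total RNA of 6 H1299 libraries (3 shControl, 3 shEphexin1) made with a stranded kit after TRIzol extraction. The deposited values are FPKM per gene and library, which the authors obtained by mapping reads to GRCh37/hg19 with TopHat2 2.0.13 and running Cuffdiff of Cufflinks 2.2.1 with geometric normalization and pooled dispersion. The gene annotation and the strand setting are not given in the sources used here. No read counts are part of the values, so depth and counting error are unknown. The labels name a neomycin and the study's methods a hygromycin version of the plasmid, and 0 value columns were left out.

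The 16020 of 26255 genes that reached 0.1 FPKM in 3 or more libraries were compared as log2(FPKM + 0.1) by limma 3.58.1 under R 4.3.3 (lmFit, then eBayes with trend), and p values were adjusted by Benjamini-Hochberg over all genes tested. The step was tested on simulated data. Positions, GC content and lengths are from GENCODE on GRCh37, where 22422 of 26253 distinct names matched by symbol and 1324 by an older symbol. Python 3.11.15, pandas 2.3.3 and matplotlib 3.10.9 were used for tables and plots.

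The members and all gene lists were chosen with earlier results of these data known. Values in every library are given for the 12 members with the smallest p and for the 3 with the highest and the 3 with the lowest FPKM. Further genes are named by rule: NGEF, head-to-head partners of named members, and the 3 other repair genes with the largest decrease at an adjusted p at or below 0.05. RAD23B, APTX, XPA, the cell cycle genes and other genes outside the rule were named after their values were seen.

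Replicate numbers were not taken as pairs. Alternatives were pseudocounts of 1 and 0.01 FPKM, no filter or one of 1 FPKM, quantile normalization, median centring, a replicate block, eBayes without trend, replicates 1 and 3 alone, a term for replicate 2, a loess correction for GC content and length (also with the block), subtraction of arm medians, other thresholds and each library left out in turn. Subtraction of the neighbours' median within 5 Mb was added after the data had been seen.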

Additional observations from a re-analysis of the deposited data

How the results depend on the processing

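The median log2 fold change of the repair genes (-0.036) became 0.022 with quantile normalization and 0.0079 with the neighbours' median subtracted, so its sign is not settled. The 2 genes with an adjusted p at or below 0.05 became 4 with replicates 1 and 3 alone, 15 with a term for replicate 2 and 14 with the GC and length correction, and 0 to 2 when single libraries were left out (0 without any 1 library other than shEphexin1 replicate 2). The 6 genes with an unadjusted p under 0.05 became 16, 20 and 20 under the first 3 of these settings, and 3 to 12 with a library left out. At this threshold 23.3% of all genes passed in the main model. The all-gene share was not counted under the other settings, so these counts cannot be read as particular to the repair genes. The 0 genes called became 1 without shEphexin1 replicate 2 (0 without each other library) and 1 at an adjusted p at or below 0.025 with no fold threshold, where that gene is RAD51C. The share of all genes called was not counted under these settings, so these counts cannot be read as particular to the repair genes either. The all-gene share at an adjusted p at or below 0.05 moved too, from 7.01% to 30.4% with the GC and length correction. It lay between 0.968% and 8.20% with a library left out, where fewer samples enter the fit.

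The labels number the libraries but state no pairing, so the numbers were not taken as pairs. Same-numbered libraries deviated from their group means with correlations of 0.0914, 0.430 and 0.328, and every library correlated best with its own number. This is a hint of a difference shared by number, from the data and not from the design, and the main model has no term for it. With a replicate block, 17 genes had an adjusted p at or below 0.05 (33.5% of all genes did) and 24 an unadjusted p under 0.05. With the block and the GC and length correction the counts were 19 (33.9%, where 36.6% of all genes passed) and 24. For the 24 genes of either setting no all-gene share at an unadjusted p was counted.

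Over 18 alternative fits, 22 of the 56 genes changed sign at least once, all with a log2 fold change of at most 0.18 in size in the main model. Of the genes chosen by rule for full values, those that changed sign, subtractions included, were PRKDC, RAD52, ERCC4, XRCC5, ERCC1 and XRCC6. PRKDC became 0.029 with arm medians and 0.19 with the neighbours' median subtracted, and RAD52 became 0.11 and 0.10. ERCC4 went from -0.15 to 0.0079 with the neighbours' median subtracted. With quantile normalization XRCC5 and ERCC1 became 0.021 and 0.054. The XRCC6 value of -0.0028 became 0.0083 with median centring and 0.15 with quantile normalization. It was 0.044 with the GC and length correction, with or without the block. When single libraries were left out it lay between -0.046 and 0.033, above zero without shControl replicate 1, shControl replicate 3 or shEphexin1 replicate 2. The cause of these changes was not tested. Depth is unknown, so its limits cannot be given.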
